A study of Mus musculus with 6 samples.

Results

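The SOCS family of cytokine feedback inhibitors was examined in CD8+ T cells cultured with or without sphingosine-1-phosphate (S1P), a lipid that signals through G-protein-coupled receptors such as S1PR1. The family was taken as Cish and Socs1 to Socs7, which are 8 of the 56941 genes in the count table, found by matching Ensembl identifiers to GENCODE symbols. According to the labels, naive CD8+ T cells were purified from spleens of B6 mice, while the study's methods allow for unseparated splenocytes as the starting cells of such cultures. The cells were activated on plates coated with antibodies to CD3 and CD28 for 3 days, with recombinant IL-2 at 100 U/ml in every culture. After 24 h, 3 cultures received vehicle and 3 received S1P at 5 µM, and polyadenylated RNA of each was sequenced as a strand-specific library. The labels call the samples biological replicates without saying whether they came from separate mice, so the p-values measure the spread between these samples, which may be partly technical.

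SOCS proteins are made in response to cytokines and switch off the pathway that induced them. A cytokine receptor activates Janus kinases (JAKs), these phosphorylate STAT transcription factors, and STATs enter the nucleus and induce genes that include Cish, Socs1, Socs2 and Socs3. The SH2 domain of a SOCS protein binds phosphorylated tyrosines on receptors or kinases, and its SOCS box recruits Elongin B, Elongin C and Cullin-5, a ubiquitin ligase that marks the bound protein for degradation. CIS, the product of Cish, and SOCS1 to SOCS3 are known as inducible brakes on IL-2, interferon, growth hormone and IL-6 family signals, and SOCS1 and SOCS3 also carry a kinase inhibitory region that blocks JAKs directly. SOCS4 to SOCS7 have longer amino-terminal regions and are linked more to receptor tyrosine kinase and insulin signalling.

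The start regions of 3 inducible members are shown because STAT and interferon regulatory factors are known to act at such elements, and these 3 are the inducible members that the RefSeq table holds. The sequences are those of RefSeq (GRCm38.p6), whose table of windows from 250 bases before to 50 bases after a start matched 4 of the 8 members, Cish, Socs1, Socs3 and Socs4. Each was placed on GRCm39 by an exact match, which was found once per chromosome. Capitals mark TTCNNNGAA, the paired half-sites that STAT dimers prefer, and GAAANNGAAA, the repeat that interferon regulatory factors prefer. Both strands were searched, and TTCNNNGAA reads the same on both.
Socs3, the 250 bases before its start, chr11:117860193-117860442, minus strand of GRCm39: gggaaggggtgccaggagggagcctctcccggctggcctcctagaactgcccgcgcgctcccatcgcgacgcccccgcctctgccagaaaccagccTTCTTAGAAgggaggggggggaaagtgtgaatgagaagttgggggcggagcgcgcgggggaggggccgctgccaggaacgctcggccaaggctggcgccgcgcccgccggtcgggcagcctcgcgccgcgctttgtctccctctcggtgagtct
Socs1, the 250 bases before its start, chr16:10603401-10603650, minus strand of GRCm39: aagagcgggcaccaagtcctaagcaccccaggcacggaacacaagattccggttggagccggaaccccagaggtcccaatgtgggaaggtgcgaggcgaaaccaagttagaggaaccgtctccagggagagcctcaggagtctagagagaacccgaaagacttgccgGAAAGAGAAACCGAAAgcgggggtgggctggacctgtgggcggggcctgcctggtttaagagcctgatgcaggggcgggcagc
Cish, 30 bases across its start, chr9:107173853-107173882, plus strand of GRCm39: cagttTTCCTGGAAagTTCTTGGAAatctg

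The Socs3 window held 1 match of TTCNNNGAA, which began 154 bases before the start. Cish held 2, beginning at bases 1 and 12 of the RefSeq transcript, and Socs1 and Socs4 held none in their windows. For GAAANNGAAA the Socs1 window held 2 matches, which overlap and begin 83 and 77 bases before the start, and the other 3 windows held none. Of 32851 RefSeq windows of this length, 8.30% held at least 1 TTCNNNGAA and 0.457% held 2 or more, while 3.44% and 0.225% did so for GAAANNGAAA. GENCODE vM39 extends the models of these genes further upstream than RefSeq, to base 117860898 of chromosome 11 for Socs3, base 10603875 of chromosome 16 for Socs1 and base 107173225 of chromosome 9 for Cish. The Socs3 transcript marked as canonical there starts at base 117860123, downstream of the RefSeq start and of the searched window. These matches describe letters in a window and were not linked to binding in these samples.

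Total counts lay between 13636095 and 17089831 in vehicle-treated and between 12048880 and 17384084 in S1P-treated samples. Values below are CPM, counts scaled to a common library size, after TMM correction for library composition. Transcripts of other lymphocytes were present in the libraries labelled CD8+ T cell: Cd4 was at 186 to 223 CPM with vehicle and at 195 to 254 CPM with S1P, where Cd8a was at 207 to 251 and at 132 to 144 CPM, and all 7 B cell markers listed were detected. The summed CPM of 6 T cell genes, of which Cd8a and Cd8b1 mark CD8 T cells and Cd3d, Cd3e, Cd3g and Trac mark T cells of any kind, was 1091 to 1250 with vehicle and 947 to 1052 with S1P. For 4 CD4 T cell markers it was 229 to 272 and 252 to 319, and for 7 B cell markers 1072 to 1306 and 1120 to 1216. The sum of the 6 T cell genes was lower in all 3 S1P-treated samples, while the other sums overlapped between the groups. In bulk RNA, fewer cells of a type and less RNA per cell cannot be told apart. Myeloid, NK and erythroid sums stayed under 5 CPM in every sample. S1P-treated replicate 2 stood apart from the other 5 samples, with 7.80% of its counts from mitochondrially encoded genes, where the others had between 4.10% and 4.93%.

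All 8 members had enough counts to be tested, with between 142 and 1680 counts per sample. A gene was called when edgeR's quasi-likelihood test gave an adjusted p of at most 0.05 over the 13299 tested genes and the log2 fold change (log2FC, S1P minus vehicle) reached 0.3 in either direction. One member, Socs3, was called, and it was higher with S1P. By the same rule 23.1% of all tested genes were called, 12.7% as higher and 10.4% as lower. At the adjusted p alone, 3 members passed, Socs3, Socs2 and Socs6, and 28.5% of all tested genes did. The 3 vehicle-treated and 3 S1P-treated values were fully separate for those 3 members, and for 45.6% of the genes tested. The median log2FC was -0.02 over the 8 members and 0.01 over all tested genes, with 6 members below 0 and 2 above.

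**Figure D1:**
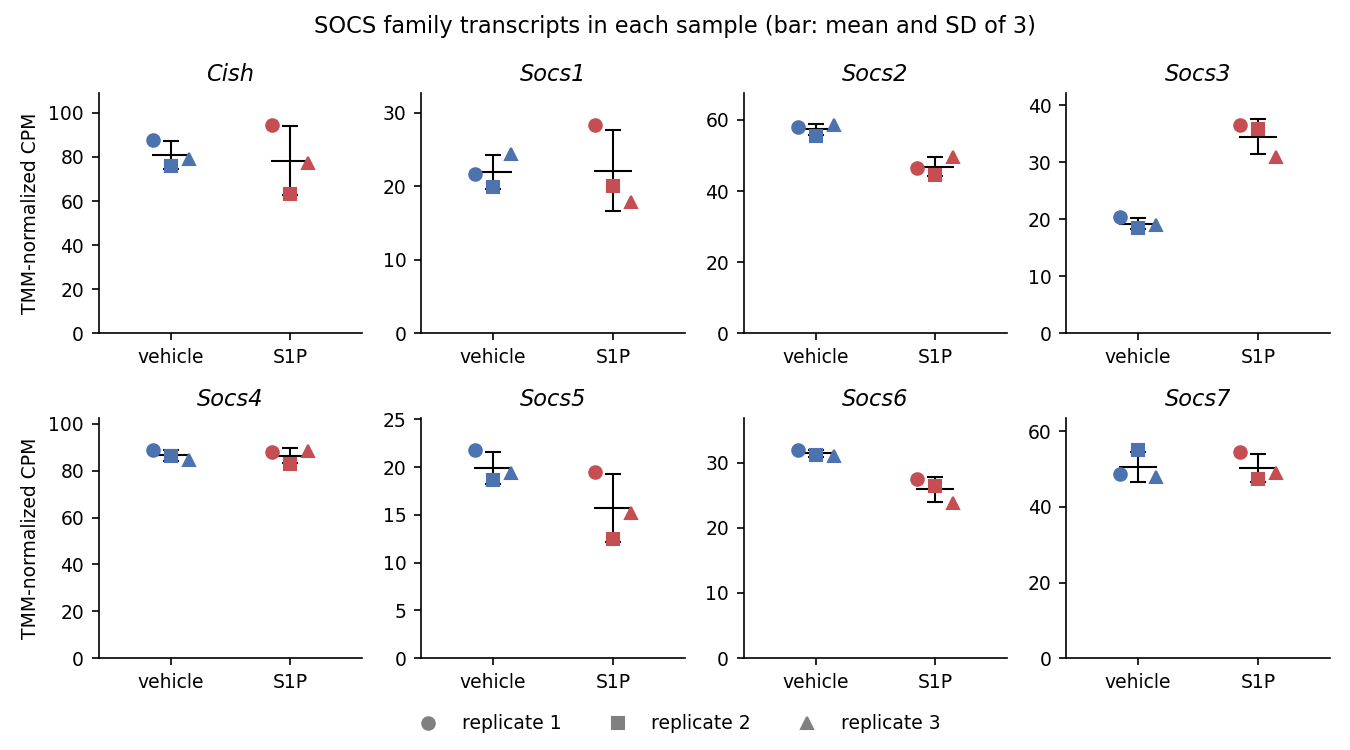
TMM-normalized CPM of the 8 SOCS family genes in each of 3 vehicle-treated (blue) and 3 S1P-treated (red) samples, with marker shape for the replicate number and a bar for the mean and SD of each group. Socs3 sits between 18.4 and 20.4 CPM with vehicle and between 31.01 and 36.6 CPM with S1P, and Socs2 and Socs6 are lower in every S1P-treated sample.

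Socs3 encodes the inhibitor that binds gp130, the shared receptor chain of IL-6 family cytokines, together with the JAK attached to it. It lies on the minus strand of chromosome 11 (117856905 to 117860898 of GRCm39, ENSMUSG00000053113). Socs3 was at 20.4, 18.4 and 19.0 CPM in vehicle-treated replicates 1 to 3. With S1P it was at 36.6, 35.9 and 31.01 CPM. All 3 S1P-treated samples were above all vehicle-treated samples, and the gap between the groups was wider than the spread within either. The mean went from 19.3 ± 0.99 to 34.5 ± 3.03 CPM (SD, n = 3 each), a 1.79-fold rise, with a log2FC of 0.84 (standard error 0.09, 95% interval 0.63 to 1.05, edgeR adjusted p = 0.000123). Each fit that left out 1 sample kept the call, with log2FC values between 0.79 and 0.90, and without S1P-treated replicate 2 it was 0.82 (edgeR adjusted p = 3.75e-05). Of its exon bases 11.8% lie under genes of the opposite strand, and the strand setting of the counting is not given in the sources used here. None of its 31-base stretches occurs in transcripts of another gene on the same strand.

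Ratios within a library do not depend on how libraries are scaled, so the counts of Socs3 were also set against those of every other member. Against Socs6 the ratio was 0.636, 0.591 and 0.613 in vehicle-treated and 1.33, 1.36 and 1.30 in S1P-treated samples. Relative to Cish it went from a mean of 0.238 ± 0.00603 to 0.452 ± 0.102 (SD, n = 3 each), and relative to Socs1 from 0.882 ± 0.0897 to 1.603 ± 0.272 (SD, n = 3 each). All 7 ratios were higher in every S1P-treated sample than in any vehicle-treated one, by between 0.84 (Socs4) and 1.20 (Socs5) on the log2 scale. The exact permutation test, two-sided, gave p = 0.1 for each, the smallest p that 3 samples against 3 allow, and 0.1 after Benjamini-Hochberg adjustment over the 7 ratios. All 7 ratios share the Socs3 counts as numerator, so they restate the rise of Socs3 and are not 7 separate results. Socs3 was singled out for these ratios after its values were seen.

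Cish is a classic target of STAT5, the main STAT downstream of IL-2, and its product CIS is known to restrain T cell receptor and IL-2 signals in CD8+ T cells. It lies on the plus strand of chromosome 9 (107173225 to 107179983 of GRCm39, ENSMUSG00000032578), and 26.3% of its exon bases lie under genes of the opposite strand. Cish was at 87.9, 75.8 and 79.0 CPM with vehicle and at 94.5, 63.0 and 77.4 CPM with S1P. The S1P-treated samples held both the highest and the lowest value. The log2FC was -0.04 (95% interval -0.31 to 0.23, edgeR adjusted p = 0.828), an interval that reached the fold threshold on the lower side. Without S1P-treated replicate 2, which had the lowest value, it was 0.09 (edgeR adjusted p = 0.451).

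SOCS1 is known as the main brake on interferon-gamma signals and on common gamma-chain cytokines in T cells. Its gene lies on the minus strand of chromosome 16 (10600104 to 10603875 of GRCm39, ENSMUSG00000038037). Socs1 was at 21.6, 19.9 and 24.4 CPM with vehicle and at 28.4, 20.1 and 17.9 CPM with S1P. Here too the S1P-treated samples spanned the vehicle-treated ones, with a coefficient of variation of 24.9% against 10.5%. The log2FC was 0.02 (95% interval -0.31 to 0.36, edgeR adjusted p = 0.926). Leaving out S1P-treated replicate 1, the highest value, moved it to -0.21 (edgeR adjusted p = 0.195), and leaving out S1P-treated replicate 3, the lowest, moved it to 0.15 (edgeR adjusted p = 0.537).

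SOCS2 is best known for limiting growth hormone signals and is another STAT5-induced gene. It lies on the minus strand of chromosome 10 (95219523 to 95253929 of GRCm39, ENSMUSG00000020027). Socs2 was at 57.9, 55.5 and 58.6 CPM with vehicle and at 46.4, 44.4 and 49.7 CPM with S1P, and no S1P-treated sample reached the vehicle-treated range. The log2FC was -0.29 (standard error 0.07, 95% interval -0.45 to -0.13, edgeR adjusted p = 0.012), which passed the adjusted p and stood just short of the fold threshold. It reached the call without vehicle-treated replicate 2 (-0.32, adjusted p = 0.0302) and likewise when S1P-treated replicate 3 was left out (-0.34, adjusted p = 0.0176, both edgeR). In edgeR its adjusted p rose to 0.0531 when vehicle-treated replicate 1 was left out and to 0.0598 when replicate 3 was.

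Among the members with long amino-terminal regions, Socs6 was lower with S1P by a similar amount. SOCS6 is known to bind receptor tyrosine kinases such as KIT and the kinase LCK. Its gene on chromosome 18 (88683348 to 88945635, minus strand of GRCm39, ENSMUSG00000056153) was at 32.0, 31.2 and 31.1 CPM with vehicle and at 27.5, 26.4 and 23.8 CPM with S1P. The groups did not overlap, and the vehicle-treated samples lay within 1 CPM of each other. With a log2FC of -0.28 (standard error 0.09, 95% interval -0.46 to -0.09, edgeR adjusted p = 0.0314), Socs6 passed the adjusted p but not the fold threshold. It was called without S1P-treated replicate 1 (-0.33, edgeR adjusted p = 0.0224), while its adjusted p rose above 0.05 when any vehicle-treated replicate or S1P-treated replicate 3 was left out (edgeR adjusted p up to 0.105). DESeq2 gave an adjusted p of 0.0548. Of its 31-base stretches 7.05% occur in transcripts of other genes.

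Socs5, whose product is linked to EGF receptor turnover and to inhibition of IL-4 signals, had the largest difference below 0 but also a wide spread. It lies on the plus strand of chromosome 17 (87414674 to 87445267 of GRCm39, ENSMUSG00000037104). Socs5 was at 21.8, 18.6 and 19.4 CPM with vehicle and at 19.5, 12.5 and 15.2 CPM with S1P, so that 1 S1P-treated sample fell within the vehicle-treated range. The log2FC was -0.33 (standard error 0.14, 95% interval -0.64 to -0.01, edgeR adjusted p = 0.114), and Socs5 was not called. With no filter on low counts it was called (-0.35, edgeR adjusted p = 0.0478). Socs5 was also called with the replicate number as a block (-0.34, edgeR adjusted p = 0.0381), though the labels do not say whether same-numbered samples belong together. Its value rested on single samples: without S1P-treated replicate 1 it was -0.53 and called (edgeR adjusted p = 0.00968), and without S1P-treated replicate 2 it was -0.19 (edgeR adjusted p = 0.261).

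Socs4 and Socs7 had the narrowest intervals round 0 of the members that were not called. SOCS4, a close relative of SOCS5, is linked to EGF receptor turnover, and SOCS7 to insulin signalling. Socs4 (chromosome 14, 47514368 to 47533559, plus strand of GRCm39, ENSMUSG00000048379) was at 89.1, 86.2 and 84.4 CPM with vehicle and at 88.1, 82.9 and 88.4 CPM with S1P. Its log2FC was -0.0010 (95% interval -0.14 to 0.14, edgeR adjusted p = 0.992). Socs7 (chromosome 11, 97253032 to 97289368, plus strand of GRCm39, ENSMUSG00000038485) was at 48.7, 55.2 and 48.0 CPM with vehicle and at 54.6, 47.4 and 48.9 CPM with S1P. Its log2FC was -0.0038 (95% interval -0.19 to 0.18, edgeR adjusted p = 0.978). For both genes the whole interval lay inside the fold threshold of 0.3.

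**Figure D2:**
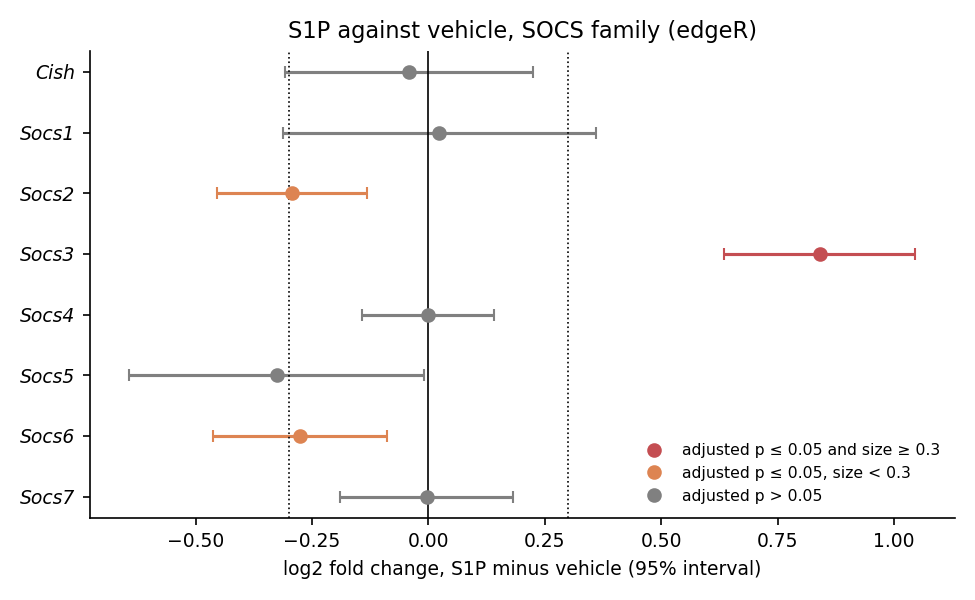
Log2 fold change, S1P minus vehicle, of each SOCS family gene with its 95% interval from edgeR (3 samples per group); dotted lines mark the threshold of 0.3 in size. Socs3 at 0.84 is the only gene past both thresholds, Socs2 (-0.29) and Socs6 (-0.28) pass the adjusted p alone, and the intervals of Cish, Socs1, Socs4 and Socs7 span 0.

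Levels of different genes were compared per kilobase, first with all annotated exons of a gene merged. In vehicle-treated samples Cish (12.6 ± 0.97 CPM per kilobase) and Socs4 (12.5 ± 0.34) stood highest and overlapped, followed by Socs1 (6.496 ± 0.68) and Socs7 (6.46 ± 0.51), which also overlapped (SD, n = 3 each). Socs3 was at rank 5 with 5.41 ± 0.28, Socs2 at rank 6 with 3.76 ± 0.11, and both were separate from their neighbours. Socs5 (2.69 ± 0.23) and Socs6 (2.64 ± 0.04) closed the order and overlapped. With S1P, Socs3 stood at 9.69 ± 0.85 CPM per kilobase (SD, n = 3), at rank 3, where its range overlapped that of Cish (12.2 ± 2.46) and lay above those of Socs1 (6.54 ± 1.63) and Socs7 (6.43 ± 0.48).

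The order depends on the length used, since GENCODE lists 52 transcripts for Socs2, with 15258 merged exon bases against 5841 in the longest transcript. Per kilobase of the longest transcript, vehicle-treated Socs2 moved from 3.76 to 9.82 and from rank 6 to rank 3, and Cish, at 17.2 ± 1.33, was separate from Socs4 at 12.5 ± 0.34 (SD, n = 3 each). On this scale Socs3 was at rank 4 with vehicle (7.11 ± 0.37), where it overlapped Socs7 and Socs1, and at rank 2 with S1P (12.7 ± 1.12, SD, n = 3 each), where it overlapped both Cish and Socs4. The rank of Socs3 was thus higher with S1P than with vehicle for both lengths.

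**Figure D3:**
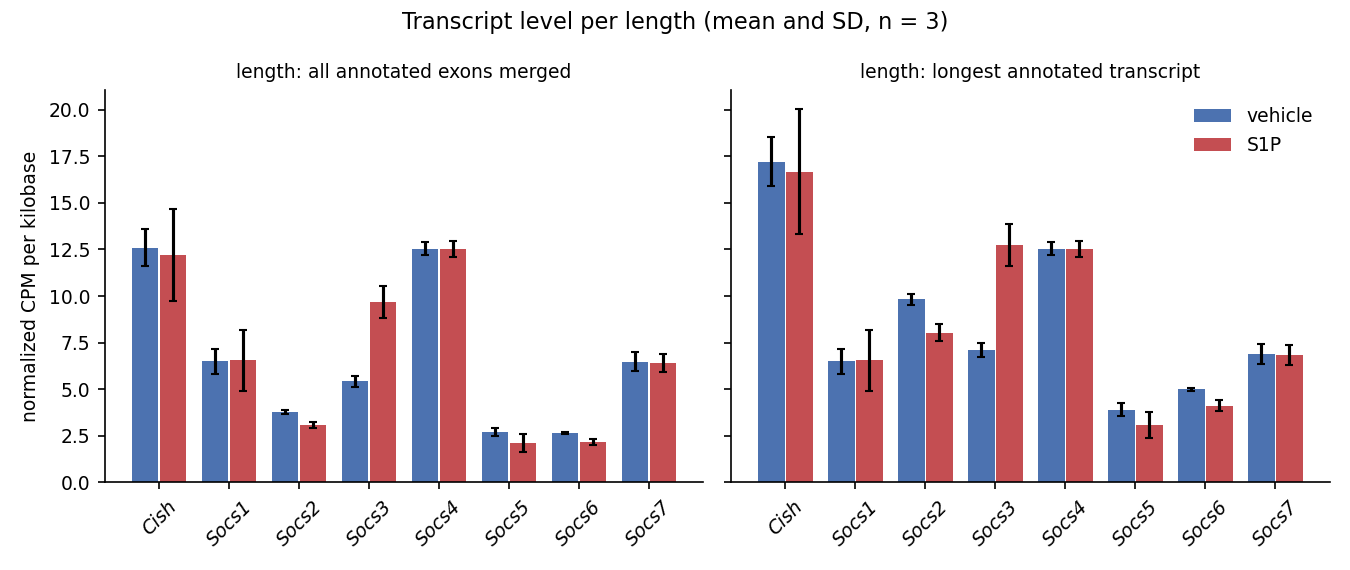
Normalized CPM per kilobase of the SOCS family genes in vehicle-treated (blue) and S1P-treated (red) samples, as mean and SD of 3, with all annotated exons merged (left) or the longest annotated transcript (right) as the length. Cish and Socs4 are high on both scales, the Socs2 bars move most between the panels, and Socs3 goes from 5.41 to 9.69 on the left.

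By 1 measure of likeness, the root mean square difference of centred log2 CPM over the 6 samples among the 8724 genes whose mean log2 CPM reached 3, the genes most like Socs3 were Arrdc3, Flot1 and Sdc4. Arrdc3, which encodes an arrestin-domain protein, differed from it by 0.066 and went from 25.3 ± 1.38 to 44.9 ± 2.88 CPM (SD, n = 3 each). Flot1, a membrane scaffold gene with 29.8% of its exon bases under genes of the opposite strand, differed by 0.070, and Sdc4, a cell surface proteoglycan gene, by 0.074. All 3 were higher in every S1P-treated sample, with log2FC values of 0.83, 0.79 and 0.82. This follows from how they were picked, by likeness to Socs3 over these same samples, and is no separate result. The measure follows the difference between the groups and the scatter within them together.

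The kinases and transcription factors upstream of the family were tested in the same fit. Of 4 Janus kinases, 2 were higher with S1P. Jak2 was at 459.9, 378 and 444 CPM with vehicle and at 711, 825 and 717 CPM with S1P, a log2FC of 0.81 (standard error 0.09, edgeR adjusted p = 0.000123). Its groups did not overlap, and the call held in all 6 fits that each left out 1 sample. Jak3, the kinase bound to the common gamma chain, went from 111 ± 5.56 to 140.3 ± 19.5 CPM (SD, n = 3 each), a log2FC of 0.34 (edgeR adjusted p = 0.0194). It lost its call in 4 of those 6 fits, namely those lacking replicate 1 or 3 of either group, with log2FC values down to 0.22. Jak1 (0.11, edgeR adjusted p = 0.219) and Tyk2 (-0.07, edgeR adjusted p = 0.594) did not pass.

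Of 6 STAT genes examined, 2 were called, both higher, and all 6 log2FC values were above 0. With upper-quartile scaling 4 were called. Stat2, which acts in type I interferon signalling, went from 61.0 ± 3.75 to 115 ± 10.6 CPM (SD, n = 3 each), a log2FC of 0.92 (standard error 0.08, edgeR adjusted p = 3.69e-05). Stat3, the STAT activated by IL-6 family cytokines and IL-21 and a known inducer of Socs3, went from 304 ± 22.9 to 433 ± 41.8 CPM (SD, n = 3 each), a log2FC of 0.51 (standard error 0.09, edgeR adjusted p = 0.00134). Stat5a (0.28, edgeR adjusted p = 0.0121) and Stat5b (0.29, edgeR adjusted p = 0.0322) passed the adjusted p with changes under the threshold. Stat6 (0.14) and Stat4 (0.06) had adjusted p values of 0.12 and 0.648 in edgeR. Of the Stat4 exon bases, 11.5% lie under another gene of the same strand and 30.0% under genes of the opposite strand.

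Cytokine receptors that signal through JAKs were split in direction, with 4 of 21 tested genes called higher, 3 lower and 14 not called. Among the called genes, Il12rb2 (0.73), Il7r (0.56) and Ifngr2 (0.45) had the largest rises on the log2 scale. Lifr (-0.80), Il27ra (-0.35) and Il12rb1 (-0.30) were the 3 that fell, and of the 6 fits with a sample left out, 3, 5 and 4 did not call them. The count of receptors called was 4, with no fall among them, without vehicle-treated replicate 1 or 3 or S1P-treated replicate 3. The split also depended on scaling, with 5 higher and 1 lower for upper-quartile factors, and 4 and 2 for total counts only. Il27ra lost its call under both of these scalings and Il12rb1 with upper-quartile factors. Of the Il12rb2 exon bases, 40.0% lie under genes of the opposite strand. Among 13 tested cytokine ligands, Il3 (1.18) and Il21 (0.48) were called higher and Ifng (-0.50) lower, and 10 were not called. Of the Ifng exon bases, 26.0% lie under another gene of the same strand. The ligand count was 1, Ifng alone, without vehicle-treated replicate 3 or S1P-treated replicate 3. Il21 lost its call in 5 of the 6 fits, and under 4 other settings, DESeq2 among them, and Il3, at 0.69 CPM with vehicle, in 2 fits. Of the ligand list, Il6, Il22 and Ifnb1 reached at most 9, 6 and 0 counts in any sample and were not tested.

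Inhibitors of JAK-STAT signalling outside the family had 2 of 13 genes called, both higher, and 4 called without vehicle-treated replicate 2. Usp18, which dampens the type I interferon receptor, went from 7.97 ± 0.84 to 16.5 ± 3.79 CPM (SD, n = 3 each), a log2FC of 1.05 (edgeR adjusted p = 0.000994). Ptpn2, a phosphatase that acts on JAK1, JAK3 and STATs, had a log2FC of 0.43 (edgeR adjusted p = 0.00737). The other 11 were not called, among them all 4 Pias genes.

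The ligase that SOCS boxes recruit was tested as 6 subunits, and none was called. Cul5, the scaffold, had a log2FC of 0.04 (edgeR adjusted p = 0.713) and Eloc, which encodes Elongin C, one of -0.15 (edgeR adjusted p = 0.153). The median was -0.14 and 5 of the 6 values were below 0. In edgeR 0 of them had an unadjusted p under 0.05, the smallest being 0.058 for Rbx1, and 0 were called in any of the 16 alternative fits and thresholds, DESeq2 and limma-voom included. Of 26 other genes whose proteins carry a SOCS box, 14 were tested, with 3 higher, 2 lower and 9 not called. Spsb1 (0.87), a substrate receptor for inducible nitric oxide synthase, Asb7 (0.38) and Wsb1 (0.37) were higher, and Asb6 (-0.57) and Wsb2 (-0.34) were lower. Asb7 lost its call without vehicle-treated replicate 1 or 3, and Wsb2, with 28.6% of its exon bases under genes of the opposite strand, without vehicle-treated replicate 3 or S1P-treated replicate 2. Without vehicle-treated replicate 3 the count of called genes in this list was 3.

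Genes commonly used as STAT5 and STAT3 targets were counted with members of the family left out. For STAT5, 1 of 9 tested genes was called, Bcl2, a survival gene, which was higher (0.67, edgeR adjusted p = 0.000132). Il2ra (0.23), Pim1 (0.27) and Ccnd2 (-0.27) passed the adjusted p with changes under the threshold. Counts for this list were 2 without S1P-treated replicate 3 and 3 without vehicle-treated replicate 2 or S1P-treated replicate 2. With all samples kept, the count was 2 with DESeq2, with upper-quartile factors and with no filter on low counts. For STAT3, 3 of 6 tested genes were called, all higher: Junb (0.79), Bcl3 (0.43) and Il21 (0.48), the last with the limits given above. The STAT3 count was 2 with DESeq2, with total counts only, with no filter and with the replicate block. It was 2 to 4 with 1 sample left out. Pim1 and Myc are in both lists, and 23.1% of all tested genes were called. The difference in counts between both lists was not tested.

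Together the 9 lists hold 110 genes outside the family, of which 87 were tested, 18 were higher and 6 lower with S1P. These 24 called genes stand beside 23.1% called among all tested genes, a share close to theirs. By direction, 12.7% of all tested genes were called higher and 10.4% lower, so the lists leaned more towards higher. That lean was not tested. The same shares stand beside the counts of each list above. The marker sums for T cells, CD4 T cells and B cells given above stand beside these counts and the rise of Socs3. Zbtb7b (0.37) and Cd40lg (0.50) of the CD4 list were called higher, both genes specific to CD8 T cells, Cd8a (-0.67) and Cd8b1 (-0.55), lower, and Ms4a1 (-0.39) and Cd22 (-0.44) of the B cell list lower. The other 5 B cell markers were not called, with log2FC values from -0.27 (Cd79b) to 0.33 (Pax5), and neither were the 4 genes shared by all T cells, from -0.28 (Cd3d) to 0.15 (Cd3e), or Cd4 (0.10) and Foxp3 (0.02). Their part in the values of the SOCS family was not tested.

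**Figure D4:**
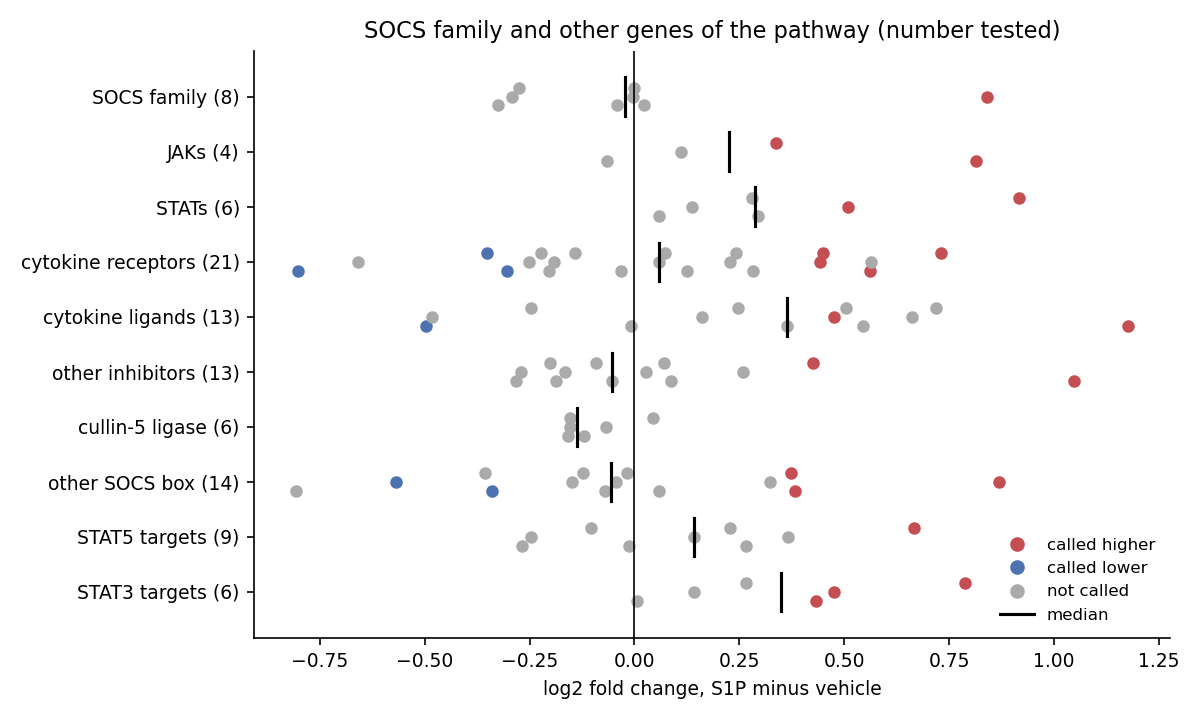
Log2 fold change, S1P minus vehicle, of every tested gene of the SOCS family and of 9 lists around it, 1 point per gene, with the number tested in brackets and a black bar at each list's median. Red points were called higher and blue points lower; Socs3 at 0.84 stands apart from the other 7 members, and the cullin-5 ligase has no called gene.

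The values of the family under other tools, scalings, filters and sample sets are drawn in the plot of members under other fits. Socs3 kept its direction and its call in every fit, between 0.79 and 0.90 on the log2 scale, and Socs2, Socs5 and Socs6 stayed below 0 in every fit. Cish, Socs1, Socs4 and Socs7 lay on both sides of 0 and were called in none. The number of members called was 1 to 3 over the fits that left out 1 sample: 2 without vehicle-treated replicate 2 or S1P-treated replicate 3, where Socs2 joined Socs3, and 3 without S1P-treated replicate 1, where Socs5 and Socs6 did.

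**Figure D5:**
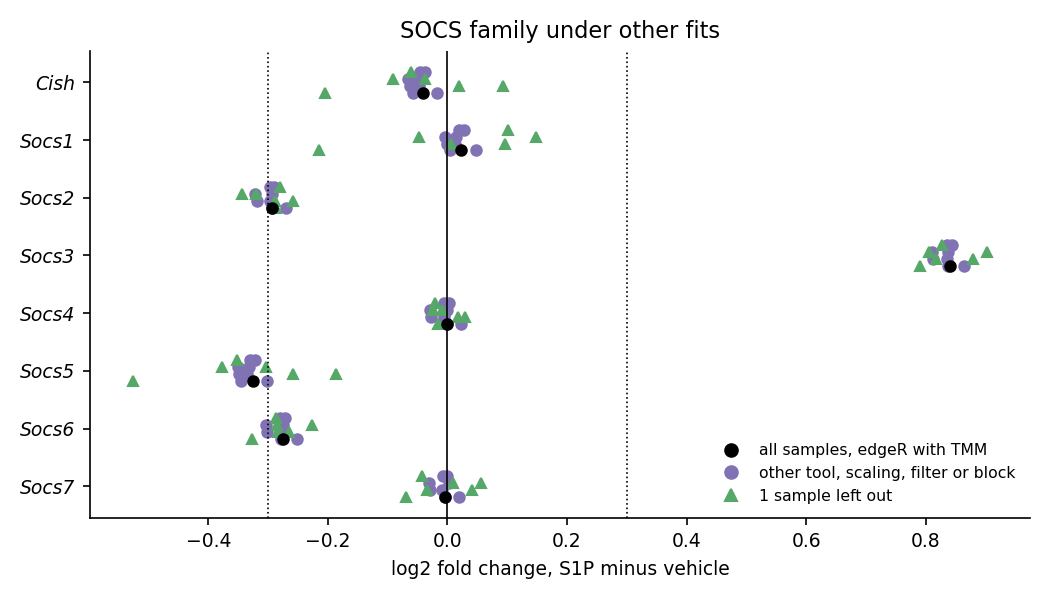
Log2 fold change, S1P minus vehicle, of each SOCS family gene with all samples in edgeR (black), with another tool, scaling, filter or the replicate block (purple), and with 1 sample left out (green triangles); dotted lines mark 0.3 in size. Socs3 lies between 0.79 and 0.90 throughout, Socs5 spreads from -0.53 to -0.19 and Socs1 from -0.21 to 0.15.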

How the data were processed

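RNA-seq counts of 6 samples, 3 with S1P and 3 with vehicle, were used. The authors trimmed reads with Trim Galore, aligned them with STAR (GRCm39, per the labels) and used featureCounts for counting; the deposited table holds the resulting raw counts per gene, not normalized. Annotation release, strand setting and handling of multi-mapping reads are not given in the sources used here. All 6 columns of the table were used.

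Symbols and lengths came from GENCODE vM39, which holds 56323 of the 56941 identifiers. Counts were scaled by TMM, filtered with filterByExpr (13299 genes kept) and fitted with edgeR 4.0.16 (quasi-likelihood, treatment as the only term, R 4.3.3), with p-values adjusted by Benjamini-Hochberg over every tested gene. Standard errors were the log2 fold change over the root of the F statistic, and intervals are at 95%. A call needed both an adjusted p no higher than 0.05 and a log2 fold change beyond 0.3 either way, the limits the study used. Total counts were 12048880 to 17384084 per sample, and the common biological coefficient of variation was 0.0826. No replicates were duplicates, with a chi-square per gene of 3.50 to 3.63 between vehicle-treated and 5.39 to 27.1 between S1P-treated samples, over genes with at least 10 counts in a pair.

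The members and lists were chosen with earlier results of these data known. All members, JAKs and the STATs examined are named, up to 3 called genes per direction of each other list (the 2 most abundant where none was called), and the 3 genes nearest to each called member. Marker genes, untested ligands, Pias genes and uncalled STAT targets were named after their values were seen. A gene and the list built on it are not reported here. Fits were tested on simulated counts for this comparison: of 100 genes changed by 0.5 on the log2 scale edgeR called 66, and of 100 changed by 1 it called 86, among 13087 genes, with 15 unchanged genes called. Alternatives were DESeq2 1.42.0, limma-voom (limma 3.58.1), RLE, upper-quartile or total-count scaling, other filters and thresholds, the replicate number as a block, each sample left out, and another gene length.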

Additional observations from a re-analysis of the deposited data

How the results depend on the processing

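Of 128 results for members under alternatives, 101 kept their direction and their side of the thresholds, 15 changed sign without passing the adjusted p, 11 came to pass the thresholds of their setting, which at the adjusted p alone include no fold, and 1 no longer did. The number of members called, 1, was 3 with total counts only, 3 with no filter, 3 at the adjusted p alone, 2 with the replicate number as a block and 0 at a log2 fold change of at least 1, where Socs3 (0.84) fell short, and it was 1 to 3 with 1 sample left out. Socs2 was called with total counts only (-0.32), with no filter (-0.32) and at the adjusted p alone (-0.29), and lay between -0.34 and -0.26 with 1 sample left out. Socs6 was called with total counts only (-0.30) and at the adjusted p alone (-0.28), between -0.33 and -0.23 with 1 sample left out, and Socs5 with no filter (-0.35) and with the replicate block (-0.34), between -0.53 and -0.19. Sign changes were seen for Socs1 with total counts only (-0.00044) and no filter (-0.0034), for Socs4 with upper-quartile factors (0.022) and a filter of 10 counts in every sample (0.0025), and for Socs7 with limma-voom (0.0022) and upper-quartile factors (0.020). With 1 sample left out, Cish lay between -0.20 and 0.093, Socs1 between -0.21 and 0.15, Socs4 between -0.024 and 0.029 and Socs7 between -0.070 and 0.057. The cause of these shifts was not tested. At a log2 fold change of at least 1, 2 of the 24 called list genes and 465 of all 3071 called genes remained past the threshold by its construction. With 1 sample left out, 16 to 28 list genes and 2119 to 3228 of all genes were called.

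The labels do not say whether same-numbered samples belong together. The deviations of same-numbered pairs correlated at 0.12, -0.00598 and 0.0483 for numbers 1, 2 and 3, and not every sample correlated best with its own number. Values from 3 pairs cannot decide whether the samples were paired. With the replicate block 3120 genes were called in all. No scaling moved the median log2 fold change of all tested genes by over 0.1. The lowest counts of a member in any sample were 142 (Socs5), 228 (Socs1) and 251 (Socs3), and how far depth limits each was not tested.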
